A study of Mus musculus with 6 samples.

Results

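The comparison described here is TSA + LPS against LPS in primary mouse macrophages, with 1 array on each side out of 6 arrays in the series. Its members are the array pair with those titles and the 8983 of 10076 probes that carried 1 gene symbol. The cells of every group were thioglycollate-elicited macrophages, which a sterile irritant draws into the body cavity, from female C57BL/6 mice aged 6 weeks. The treatments, each on 1 array, were TSA + LPS, LPS, TSA + GW3965 + LPS, GW3965 + LPS, TSA and No treatment. The labels give no dose, no time, no gene deletion and no statement on whether arrays came from separate mice or cultures. Such macrophages are a mixed recruited population, so a change in RNA per cell and a change in the share of cells of a type cannot be told apart.

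Trichostatin A (TSA) blocks histone deacetylases, the enzymes that remove acetyl groups from histones and other proteins. Acetylated chromatin is generally open to transcription, yet deacetylases also act within transcription complexes, and inhibitors of them lower many genes. Lipopolysaccharide (LPS), a bacterial cell wall component, is sensed by Toll-like receptor 4, which switches on cytokine genes through NF-kB and AP-1 and antiviral genes through secreted interferon. GW3965 activates LXR, the liver X receptors, which control cholesterol export and restrain part of the inflammatory response.

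The deposited values are intensities on a linear scale that had been scaled before deposit, with array medians of 0.981 to 0.987. Before log2 values were taken, low values were raised to the 25th percentile of their array, which was 0.198 to 0.245 units. A gene counted as measured when the brighter array of a pair lay at or above its median, and differences that rest on such a raised value are bounds. The TSA + LPS and LPS arrays form a pair without replicates, so its differences are described as higher or lower and have no test. The arrays TSA + GW3965 + LPS and GW3965 + LPS form another TSA pair under LPS, called the GW3965 pair here, which shares no array with the first. The words rose and fell are kept for genes that passed limma, at an adjusted p under 0.05, in a fit of all 6 arrays whose TSA effect under LPS is the mean over these 2 pairs.

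By size, TSA + LPS exceeded LPS at least 2-fold for 363 of 4794 measured genes (7.57%) and lay at least 2-fold below it for 458 (9.55%). The median difference over these genes was -0.01 on the log2 scale. By limma, 378 of 5080 tested genes rose under LPS (7.44%) and 281 fell (5.53%). These shares, and those by size, are the reference for the counts of each gene list below. The fit had 1 residual degree of freedom and an infinite prior, so a gene's own disagreement between the pairs did not widen its error. Of the called genes, 312 of the risen and 167 of the fallen were at least 1.5-fold apart the same way in both pairs. With each array floored at its median instead, limma called 0 genes either way, against 468 higher and 332 lower at an unadjusted p under 0.05.

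The GW3965 pair shows how many of these genes lay the same way again on arrays the first pair did not use. Of the 363 higher genes, 231 (63.6%) were at least 1.5-fold higher in the GW3965 pair, where 13.4% of all measured genes were. Of the 458 lower genes, 148 (32.3%) were at least 1.5-fold lower there, against 7.15% of all measured genes, and 164 were under 1.2-fold apart or opposite. In the GW3965 pair by itself 227 of 4697 genes (4.83%) were 2-fold higher and 53 (1.13%) lower. At rest, TSA exceeded No treatment at least 2-fold for 330 of 4729 genes (6.98%) and lay 2-fold below it for 222 (4.69%). The standard deviation of the log2 differences, over 3881 genes at or above the median on all 6 arrays, was 0.68 in TSA + LPS minus LPS, against 0.47 in the GW3965 pair. Across measured genes, which are not independent replicates, Spearman's rho between the log2 differences of these pairs was 0.51. Between TSA + LPS minus LPS and TSA minus No treatment rho was 0.50. The resting pair repeated the direction, by 1.5-fold or more, for 221 of the 363 higher genes (60.9%). It did so for 215 of the 458 lower genes (46.9%), a larger share than the 32.3% in the GW3965 pair. The repeated directions are thus not particular to arrays with LPS.

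**Figure D1:**
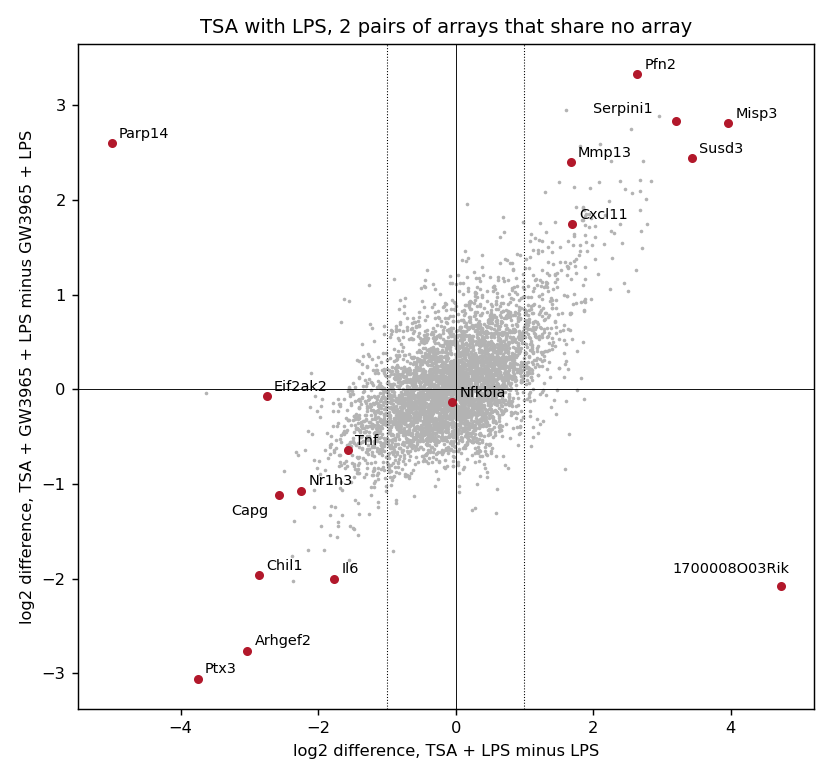
Log2 difference of each gene measured in TSA + LPS minus LPS (x axis) against TSA + GW3965 + LPS minus GW3965 + LPS (y axis), with dotted lines at 2-fold and named genes in red. Ptx3 (-3.75 and -3.06) and Arhgef2 lie low in both pairs and Misp3, Serpini1 and Susd3 high in both, while Parp14 (a bound of -5.00 and then 2.60) and 1700008O03Rik lie far out with opposite signs.

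Among secreted cytokines, 7 of 19 tested genes fell with TSA under LPS and 12 did not pass, where 5.53% of all tested genes fell. The fallen genes were Il6, Il12a, Edn1, Ifng, Tnf, Csf2 and Il1a. In the pair itself 6 of 18 measured cytokine genes were 2-fold lower and 12 were within 2-fold, with a median log2 difference of -0.55, and -0.36 in the GW3965 pair.

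Il6, which encodes a cytokine of fever and the acute phase response, read 52.9 on the TSA + LPS array, against 179.9 on the LPS array. In the GW3965 pair it read 31.5 with TSA, against 125.9 without. Both TSA arrays lay below both LPS arrays without TSA, and limma gave -1.88 on the log2 scale (SE 0.27, adjusted p = 3.63e-10). Without LPS the gene was low on both arrays, at 0.447 with TSA and 0.413 with No treatment. Il12a, a subunit of interleukin-12, the cytokine that steers T cells to interferon production, read 20.2 with TSA + LPS and 71.6 with LPS. Its GW3965 pair read 21.8 with TSA and 63.3 without, and it fell by 1.68 (SE 0.27, limma adjusted p = 1.15e-07). Il6 and Il12a thus had similar differences in both pairs.

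Tnf, the tumour necrosis factor that starts many inflammatory cascades, differed more between pairs. It read 26.1 with TSA + LPS and 77.3 with LPS, and 33.6 with TSA + GW3965 + LPS against 52.5 with GW3965 + LPS. It fell by 1.10 (SE 0.28, limma adjusted p = 0.00149). Edn1, the precursor of the vasoconstrictor endothelin-1, was 5.08-fold lower in the pair and 2.62-fold lower in the GW3965 pair, and fell by 1.87. Ifng, encoding interferon gamma, is best known from T and natural killer cells. It read 0.9 with TSA + LPS and 3.48 with LPS, the first of them just under its array median, and fell by 1.70 (SE 0.38, limma adjusted p = 0.000292). Csf2 (GM-CSF, a growth factor of myeloid cells) fell by 1.31 and Il1a, an alarmin, by 0.93.

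Il1b, the fever-inducing cytokine that inflammasomes process, did not pass. It read 475 with TSA + LPS and 674 with LPS, and 576 with TSA and 748 without in the GW3965 pair, and limma gave -0.44 (SE 0.26, adjusted p = 0.28). Il18, another inflammasome substrate, read 214 with TSA + LPS and 211 with LPS. These genes differed by less than 2-fold in both LPS pairs.

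Chemokines, which recruit leukocytes, did not share a direction. Of 20 tested, 3 fell, 1 rose and 16 did not pass, where 5.53% of all tested genes fell and 7.44% rose. The median difference in the pair was 0.18 as deposited, -0.16 after quantile normalization and -0.11 after cyclic loess, so the sign of the list depended on the scaling. Cxcl10, an interferon-induced attractant of T cells, read 52.4 with TSA + LPS and 136.5 with LPS, but only 18.9 with TSA + GW3965 + LPS and 24.7 with GW3965 + LPS. It fell by 0.89 (SE 0.27, limma adjusted p = 0.016). Cxcl11, which binds the same receptor as Cxcl10, went the other way. It read 30.5 with TSA + LPS and 9.49 with LPS, and in the GW3965 pair 10.7 with TSA and 3.2 without. It rose by 1.72 (SE 0.32, limma adjusted p = 5.01e-06), with both differences above 3-fold.

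Ccl24 (eotaxin-2, an attractant of eosinophils) was the measured chemokine with the lowest difference in the pair, at 0.575 with TSA + LPS and 2.95 with LPS. Its GW3965 pair read 0.457 with TSA and 1.86 without, and it fell by 2.19 (SE 0.38, limma adjusted p = 6.03e-07). Ccl22, an attractant of regulatory T cells, fell by 0.89. Several chemokines of high signal were close together. Ccl5 read 1116 with TSA + LPS and 900.1 with LPS, and Cxcl1 read 180.02 with TSA + LPS and 172 with LPS, and neither passed.

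Ptx3 had the lowest log2 difference among genes that were also at least 1.5-fold lower in the GW3965 pair. It encodes pentraxin 3, a soluble pattern recognition protein of the acute response. The gene read 0.681 with TSA + LPS and 9.14 with LPS, and 0.915 with TSA + GW3965 + LPS against 7.61 with GW3965 + LPS. It fell by 3.40 (SE 0.36, limma adjusted p = 1.21e-17), while both resting arrays were under the floor.

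**Figure D2:**
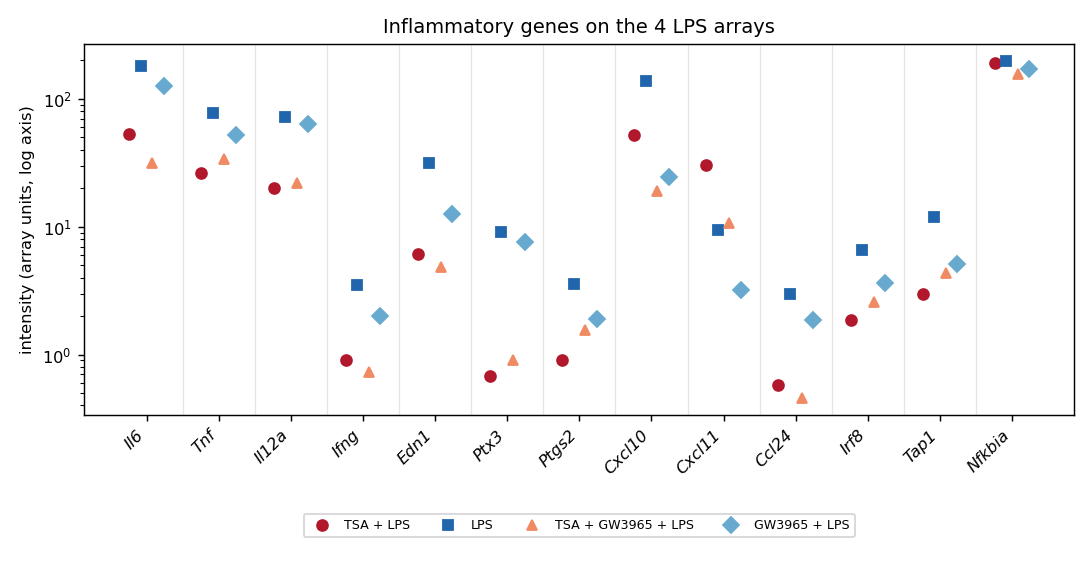
Intensity (log axis, array units) of 13 inflammatory genes on the 4 arrays with LPS, 1 point per array and no error bars because each group has 1 array. In both pairs the TSA array lies below its partner for 12 of the genes, by at most 1.10-fold for Nfkbia, and above it for Cxcl11.

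The starts of 4 genes are shown: Il6, Cxcl10 and Ptx3, which fell, and Nfkbia, which encodes the NF-kB inhibitor and did not pass. No gene that rose is among them. Each line gives the 250 bases before the RefSeq start, 5′ to 3′ on the strand of the gene, build GRCm38.p6. Capitals mark the NF-kB letters, GGGA and TTCC with any 2 bases between them, and in Cxcl10 also the interferon response element letters, GAAA and GAAA with any 2 bases between them, each searched on both strands in a window of 250 bases before and 50 after the start. They are at chr5:30012864-30013113 (plus strand) for Il6, chr5:92348890-92349139 (minus strand) for Cxcl10, chr12:55492648-55492897 (minus strand) for Nfkbia and chr3:66219637-66219886 (plus strand) for Ptx3.
Il6: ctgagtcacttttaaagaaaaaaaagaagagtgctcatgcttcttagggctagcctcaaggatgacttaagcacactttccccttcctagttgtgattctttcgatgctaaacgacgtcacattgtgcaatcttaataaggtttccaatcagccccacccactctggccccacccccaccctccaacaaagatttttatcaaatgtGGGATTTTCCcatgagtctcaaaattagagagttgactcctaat
Cxcl10: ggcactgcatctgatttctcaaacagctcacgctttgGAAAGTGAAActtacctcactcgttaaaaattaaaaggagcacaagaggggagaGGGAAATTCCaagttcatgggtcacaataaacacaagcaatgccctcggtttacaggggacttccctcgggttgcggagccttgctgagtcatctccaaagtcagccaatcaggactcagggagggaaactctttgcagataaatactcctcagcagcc
Nfkbia: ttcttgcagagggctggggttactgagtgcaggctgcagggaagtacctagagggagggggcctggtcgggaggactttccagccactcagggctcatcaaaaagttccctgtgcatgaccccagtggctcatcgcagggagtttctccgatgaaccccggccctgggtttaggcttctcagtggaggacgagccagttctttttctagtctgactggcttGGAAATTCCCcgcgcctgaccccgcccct
Ptx3: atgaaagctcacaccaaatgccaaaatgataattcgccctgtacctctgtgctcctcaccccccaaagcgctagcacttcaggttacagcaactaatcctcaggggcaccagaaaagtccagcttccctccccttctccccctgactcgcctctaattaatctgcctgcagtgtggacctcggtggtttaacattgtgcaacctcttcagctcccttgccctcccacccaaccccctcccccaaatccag
The NF-kB letters begin at position -44 in Il6, -159 in Cxcl10 and -29 in Nfkbia, and the interferon letters at -213 in Cxcl10. Ptx3 has neither in this window. A match to these letters therefore occurs in genes that fell and in a gene that did not pass, and says nothing on binding.

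Over the promoters of measured genes, 1.28% of 3906 held the NF-kB letters, 3.56% the interferon letters, 6.04% the AP-1 letters TGANTCA and 8.81% the TATA letters TATAAA. Of all 27025 promoters in the table, the shares were 1.43%, 3.49%, 7.93% and 14.2% in the same order. Genes at least 2-fold higher with GW3965 + LPS than with No treatment serve as LPS-induced genes here, since neither array enters the pair. Among those that were 2-fold lower with TSA, 88 had a promoter and 3.41% held the NF-kB letters, 12.5% the interferon letters and 11.4% the AP-1 letters. Among LPS-induced genes less than 2-fold apart, 324 had a promoter and the shares were 1.54%, 8.64% and 6.79%. Among the 17 promoters of LPS-induced genes at least 2-fold higher with TSA, 0% held the NF-kB letters, 17.6% the interferon letters and 29.4% the AP-1 letters, and the last 2 shares exceed those of the lower genes. Of 183 promoters of genes higher in both pairs, 0 held the NF-kB letters, and the median number of CG dinucleotides was 18, against 20 over measured genes. Of 118 promoters of genes lower in both pairs, 3 (2.54%) held the NF-kB letters, and the median number of CG dinucleotides was 17. These shares are descriptions without a test.

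Most interferon-stimulated effectors lay below 0 in the pair, and the GW3965 pair did not show this. Of 31 measured genes 8 were 2-fold lower and 23 within 2-fold, and 28 lay below 0, with a median of -0.79. The median was 0.19 in the GW3965 pair and 0.48 in TSA minus No treatment. By limma 6 fell and 25 did not pass, where 5.53% of all tested genes fell. For 2 of them, Gbp3 and Parp14, the GW3965 pair lay on the other side of 0, and the difference between the pairs was not tested because each has 1 array a side.

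Isg20, an exonuclease that degrades viral RNA, read 34.7 with TSA + LPS and 80.4 with LPS, and 21.7 with TSA and 28.2 without in the GW3965 pair. It fell by 0.80 (SE 0.27, limma adjusted p = 0.0281). Irgm1, a GTPase that defends against intracellular bacteria, was 2.43-fold lower in the pair and 1.13-fold lower in the GW3965 pair. Gbp3, a guanylate-binding protein with near-identical relatives that a probe may also read, had 48.03 with TSA + LPS and 135 with LPS but 84 with TSA and 79.96 without in the GW3965 pair. For these genes the LPS array carried the top value of the 4 LPS arrays. Eif2ak2, the antiviral kinase PKR, read 0.512 with TSA + LPS, 3.43 with LPS, 1.57 with TSA + GW3965 + LPS and 1.65 with GW3965 + LPS. Its lower value was thus on the TSA + LPS array and its higher value on the LPS array, with the GW3965 pair level between them.

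Parp14, an interferon-induced ADP-ribosyltransferase, had opposite signs in the pairs. Its intensity was 0.0878, under the floor, with TSA + LPS and 7.83 with LPS, at least 32-fold lower, yet 6.7 with TSA + GW3965 + LPS and 1.1 with GW3965 + LPS. Mx1, a GTPase that blocks influenza virus, read 26.2 with TSA + LPS and 57.3 with LPS, and 27.3 with TSA and 30.8 without in the GW3965 pair, and did not pass (log2 -0.65, SE 0.28, limma adjusted p = 0.11). Ifit1, which binds foreign RNA, read 101.4 with TSA + LPS and 147.8 with LPS, and 90.04 with TSA and 61 without in the GW3965 pair, and limma gave 0.01. Isg15, a ubiquitin-like modifier, was 1.15-fold higher in the pair and 1.03-fold lower in the GW3965 pair.

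Of 17 interferon signalling and nucleic acid sensing genes tested, 2 fell and 15 did not pass, where 5.53% of all tested genes fell. Irf8, a lineage factor of macrophages and dendritic cells, read 1.87 with TSA + LPS and 6.58 with LPS, and 2.56 with TSA and 3.61 without in the GW3965 pair. It fell by 1.16 (SE 0.32, limma adjusted p = 0.00592). Irf7, the factor that amplifies interferon production, fell by 0.77 (SE 0.26, limma adjusted p = 0.0321), at 1.8-fold and 1.61-fold lower. Irf1 read 158 with TSA + LPS and 146 with LPS and did not pass. Tlr3, a sensor of double-stranded RNA, was 3.08-fold lower in the pair and 1.94-fold higher in the GW3965 pair.

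Upstream of these genes, Toll-like receptor components had a median of -0.41 in the pair and -0.38 in the GW3965 pair. Of 12 tested, 3 fell and 9 did not pass, against a share of 5.53% fallen over all tested genes. Cd14, the coreceptor that hands LPS to Toll-like receptor 4, read 173.5 with TSA + LPS and 351 with LPS, and 167 with TSA + GW3965 + LPS against 339 with GW3965 + LPS. Both differences were 2.03-fold, and it fell by 1.02 (SE 0.26, limma adjusted p = 0.00205). The adaptor Myd88 was 3.45-fold lower in the pair and 1.11-fold lower in the GW3965 pair and fell by 0.97. The kinase Irak1 fell by 1.07, at 2.24-fold and 1.96-fold lower. Tlr4 itself, at 0.858 with TSA + LPS and 1.14 with LPS, did not pass, and neither did Tlr2.

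Of 13 NF-kB genes tested 2 fell and 11 did not pass, against a share of 5.53% fallen over all tested genes. Nfkb2, the precursor of the p52 subunit, read 5.96 with TSA + LPS and 16.7 with LPS, and 6.61 with TSA and 9.63 without in the GW3965 pair, and fell by 1.01 (SE 0.30, limma adjusted p = 0.011). Traf2, an adaptor of tumour necrosis factor receptors, fell by 1.29. The inhibitor Nfkbia read 191 with TSA + LPS and 198 with LPS, and 156 with TSA and 171 without in the GW3965 pair. Tnfaip3 (A20, a deubiquitinase that ends NF-kB signalling) read 2.59 with TSA + LPS and 2.48 with LPS. Neither Nfkbia nor Tnfaip3 passed, with limma effects of -0.09 (SE 0.26) and -0.15 (SE 0.32). For Rela, the p65 subunit, all 4 intensities with LPS lay between 0.354 and 0.58, under the array medians, so it was not measured.

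Several other feedback genes fell. Of 15 tested 10 did not pass and 5 fell, where 5.53% of all tested genes fell. The fallen genes were Ptpn1, Zfp36, Socs1, Ptpn6 and Socs3. Ptpn1, a phosphatase of cytokine receptor kinases, read 2.33 with TSA + LPS and 7.35 with LPS, and 2.49 with TSA and 5.22 without in the GW3965 pair, and fell by 1.36 (SE 0.31, limma adjusted p = 0.000399). Zfp36, which destabilises Tnf mRNA, was 3.35-fold lower in the pair and 1.54-fold in the GW3965 pair, and fell by 1.18. Socs1 and Socs3, which dampen JAK kinases, fell by 1.02 and 0.85. Ptpn6 (SHP-1) fell by 1.02, although it was only 1.07-fold lower in the GW3965 pair.

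Among AP-1 and immediate early factors 1 of 12 tested rose, 2 fell and 9 did not pass. Over all tested genes 7.44% rose and 5.53% fell. Atf3, a repressor that LPS induces, read 7.39 with TSA + LPS and 24.2 with LPS, and 14.6 with TSA and 17.1 without in the GW3965 pair, and fell by 0.97. Batf, an AP-1 partner in immune cells, was 1.87-fold and 1.88-fold lower and fell by 0.91. Klf2, a factor known for restraining myeloid activation, was 1.76-fold and 2.11-fold higher and rose by 0.95 (SE 0.28, limma adjusted p = 0.0105). All 15 measured MAP kinase cascade genes lay below 0 in the pair, with a median of -0.46, against -0.10 in the GW3965 pair. Of these Map2k3, an activator of p38, fell by 0.91, and 14 did not pass.

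Enzymes of inflammatory mediators split. Ptgs2, the inducible cyclooxygenase of prostaglandin synthesis, read 0.905 with TSA + LPS and 3.56 with LPS, and 1.55 with TSA and 1.89 without in the GW3965 pair. It fell by 1.13 (SE 0.37, limma adjusted p = 0.025). Slc7a2, a carrier that brings arginine into macrophages, was 2.19-fold and 2.36-fold lower in the pairs and fell by 1.18 (SE 0.27, limma adjusted p = 0.000417). Arg2, the mitochondrial arginase, rose by 0.96. Nos2, the inducible nitric oxide synthase, read 4.98 with TSA + LPS and 5.17 with LPS and did not pass (log2 -0.25, SE 0.31). Arginine uptake and arginine breakdown genes therefore moved in opposite directions, as single genes out of 13 tested, of which 10 did not pass.

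On the cell surface the costimulatory ligands differed from each other. Cd40, through which T cells activate macrophages, read 69.8 with TSA + LPS and 169.9 with LPS, and 69.2 with TSA + GW3965 + LPS against 119 with GW3965 + LPS. It fell by 1.03 (SE 0.26, limma adjusted p = 0.00158). Cd80, a ligand of CD28, rose by 0.96 (SE 0.31, limma adjusted p = 0.0236), whereas its relative Cd86 read 45.6 with TSA + LPS and 43.6 with LPS and did not pass. Among cytokine receptors Csf3r, the G-CSF receptor, fell by 1.27 and Il10rb, a subunit of the interleukin-10 receptor, by 0.95. The chemokine receptor Ccr1 rose by 0.99, at 2.14-fold and 1.85-fold higher.

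Pattern recognition genes also went both ways. Pycard (ASC, the adaptor that assembles inflammasomes) read 88.6 with TSA + LPS and 21.7 with LPS, and 54.5 with TSA + GW3965 + LPS against 17.9 with GW3965 + LPS. It rose by 1.82 (SE 0.26, limma adjusted p = 3.44e-10), and its differences were 4.09-fold and 3.05-fold. Trem1, an amplifier of Toll-like receptor signals, rose by 1.36, at intensities near or below the array medians. Clec7a (dectin-1, a receptor of fungal glucans) fell by 0.82 (SE 0.26, limma adjusted p = 0.0163).

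Antigen processing genes had the lowest median among the lists drawn in the plot of lists, -0.86 over 18 measured genes, but -0.17 in the GW3965 pair. By limma 3 fell and 15 did not pass, where 5.53% of all tested genes fell. Tap1, a subunit of the peptide transporter of class I presentation, read 2.95 with TSA + LPS and 11.9 with LPS, and 4.32 with TSA and 5.06 without in the GW3965 pair, and fell by 1.12. Psme1, a proteasome activator subunit, fell by 0.72, and Cd74, the class II invariant chain, by 0.77 (SE 0.26, limma adjusted p = 0.0279). The class I gene H2-Q7, whose near-identical relatives a probe may also read, was 4.98-fold lower in the pair and 1.59-fold lower in the GW3965 pair.

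Most mRNAs of the enzyme family that TSA inhibits did not pass. Hdac1 read 3.67 with TSA + LPS and 3.44 with LPS. Hdac3, the deacetylase of the NCoR corepressor, read 1.31 with TSA + LPS and 1.69 with LPS. Of 8 deacetylase and sirtuin genes tested, 2 rose and 6 did not pass, where 7.44% of all tested genes rose. Hdac5, a class II deacetylase, read 1.95 with TSA + LPS and 0.844 with LPS, and 1.87 with TSA and 0.942 without in the GW3965 pair. It rose by 1.10 (SE 0.33, limma adjusted p = 0.013), and stood at 5.47 with TSA alone and 5.44 with No treatment. Sirt1, a deacetylase of another class that TSA does not target, rose by 0.80.

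Among histone genes and their chaperones 4 of 12 tested rose and 8 did not pass, where 7.44% of all tested genes rose. The linker histone H1f2 read 1.3 with TSA + LPS and 0.349 with LPS, 1.55 with TSA + GW3965 + LPS and 0.43 with GW3965 + LPS, and 3.63 with TSA and 1.3 with No treatment. Each TSA array lay above its partner, and it rose by 1.87 (SE 0.37, limma adjusted p = 1.97e-05). H2az2 and H2az1, the H2A.Z variant found at promoters, rose by 1.52 and 1.11, and the chaperone Asf1a by 1.05. Of 14 acetyltransferase, bromodomain and corepressor genes 4 fell and 10 did not pass, where 5.53% of all tested genes fell. The fallen genes were Gps2 and Mbd3, subunits of the NCoR and NuRD corepressors, which were 3.07-fold and 3.21-fold lower in the pair, Smarcb1, a core SWI/SNF subunit that fell by 1.01, and Brd7, which fell by 0.87.

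Cdkn1a, the cell cycle inhibitor p21 that deacetylase inhibitors often raise in other cells, fell here by 1.02 (SE 0.31, limma adjusted p = 0.0116). It read 6.06 with TSA + LPS and 13.9 with LPS, and 4.28 with TSA and 7.73 without in the GW3965 pair. The cyclin-dependent kinase Cdk1 and the retinoblastoma gene Rb1 rose by 1.27 and 1.36. In the apoptosis list Fas, a death receptor, read 27.5 with TSA + LPS and 12.7 with LPS and rose by 1.16. Casp6 rose by 0.86 and Bak1 fell by 0.87, with 17 of 20 not passing. Over all tested genes 7.44% rose and 5.53% fell. The median of that list was 0.09 as deposited, -0.15 after quantile normalization and -0.20 after cyclic loess.

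The genes highest with TSA in both pairs lay outside the cytokine and chemokine lists. Serpini1, encoding neuroserpin, a protease inhibitor best known from neurons, read 20.1 with TSA + LPS and 2.19 with LPS. It read 19 with TSA + GW3965 + LPS and 2.66 with GW3965 + LPS, and 19.1 with TSA against 1.83 with No treatment. All TSA arrays lay between 19 and 20.1 and all others between 1.83 and 2.66, and it rose by 3.02 (SE 0.28, limma adjusted p = 2.64e-22). Of 8 measured neuronal genes that the repressor REST keeps silent elsewhere, 2 were 2-fold higher in the pair, Serpini1 and L1cam. By limma Serpini1 rose and 9 of 10 tested did not pass, and 35 of the list were on the array, most below the array medians.

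Stard10, a lipid transfer protein, read 1.54 with TSA + LPS and was under the floor with LPS, at least 7.8-fold higher. Nrtn (neurturin, a neurotrophic factor) and Prtn3, the neutrophil granule enzyme proteinase 3, were likewise under the floor on both LPS arrays without TSA, and at least 6.87-fold and 6.61-fold higher in the pair. Misp3 read 3.08 with TSA + LPS and was under the floor with LPS, and 2.47 with TSA and 0.351 without in the GW3965 pair. These genes read near or under the floor without TSA, so the size of their limma effects depends on the floor.

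Other genes of this group had clear signal on both sides. Rnaseh2c, a subunit of the nuclease that removes ribonucleotides from DNA, read 72.1 with TSA + LPS and 11.1 with LPS, and 51.2 with TSA and 16 without in the GW3965 pair. Tspan13, a tetraspanin, read 67.6 with TSA + LPS and 10.6 with LPS, and 52.1 with TSA + GW3965 + LPS against 12.2 with GW3965 + LPS. Insl6, an insulin-like peptide, was 6.43-fold and 4.64-fold higher. These 3 rose by 2.19, 2.39 and 2.45, with standard errors of 0.26 each. Pfn2, an actin-binding profilin, rose by 2.99, Mycbp, a partner of Myc, by 2.52, and Tnfrsf22, a mouse decoy receptor for TRAIL, by 2.39. Pcbp4, an RNA-binding protein, and Rassf7, of a Ras-association family, rose by 2.28 and 2.11.

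Among the lowest genes, Arhgef2, a microtubule-bound activator of RhoA, read 0.314 with TSA + LPS and 2.56 with LPS, and 0.25 with TSA and 1.7 without in the GW3965 pair. It fell by 2.89 (SE 0.41, limma adjusted p = 2.79e-10). Chil1, a chitinase-like protein of inflamed tissue, read 5.68 with TSA + LPS and 41.2 with LPS, and 9.05 with TSA + GW3965 + LPS against 35.4 with GW3965 + LPS, and fell by 2.41 (SE 0.28, limma adjusted p = 1.51e-14). Vnn3, a vanin family enzyme, fell by 2.07. Sil1, a nucleotide exchange factor of endoplasmic reticulum chaperones, was 5.63-fold lower in the pair and 1.82-fold in the GW3965 pair. Mvp, the major vault protein, fell by 1.42, Ubxn8 by 1.92 and Mgll, which breaks down monoacylglycerols, by 1.65.

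**Figure D3:**
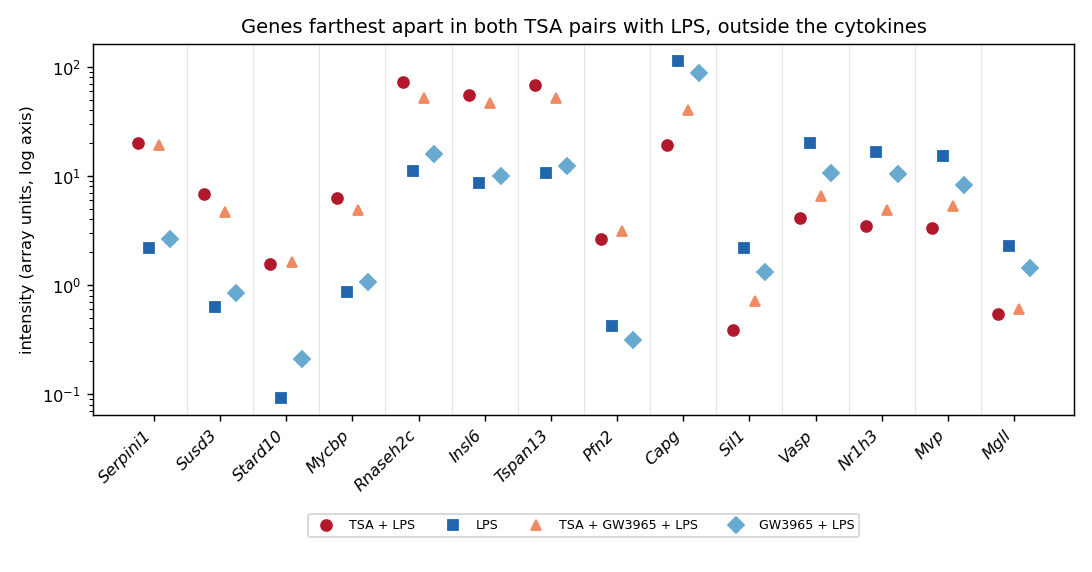
Intensity (log axis, array units) of 14 genes far apart in both TSA pairs under LPS and outside the cytokines, 1 point per array and no error bars. Serpini1 to Pfn2 lie higher on both TSA arrays than on both others, and Capg to Mgll lie lower, with a narrower gap in the GW3965 pair for each of these lower genes.

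Some genes were far apart in the pair and under 1.2-fold apart or opposite in the GW3965 pair, 62 of the 363 higher genes (17.1%) and 164 of the 458 lower genes (35.8%). The 5 described here are among those with wide differences in the pair. The RIKEN transcript 1700008O03Rik read 5.25 with TSA + LPS and 0.0702 with LPS, and it was under the floor with TSA + GW3965 + LPS and at 0.91 with GW3965 + LPS. Zmynd10, a factor of ciliary dynein assembly, read 3.03 with LPS and was under the floor on the other 3 arrays with LPS. Smarcd2, a SWI/SNF subunit, read 0.116 with TSA + LPS and between 0.842 and 1.05 on the other 3. Rbm22, a splicing factor, read 1.5 with LPS and between 4.82 and 5.12 on the other 3. The lysosomal mannosidase Man2b1 read 9.68 with TSA + LPS and 42 with LPS, and 27.3 with TSA and 31 without in the GW3965 pair. Of these genes limma called Zmynd10, Man2b1, Rbm22 and 1700008O03Rik on the mean of the pairs, although the GW3965 pair was level or opposite. The call of 1700008O03Rik was lost with the floor at the 10th percentile (limma adjusted p = 0.0558).

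Genes of redox defence went both ways, with 5 of 20 tested fallen, 3 risen and 12 that did not pass. Over all tested genes 5.53% fell and 7.44% rose. Hmox1, the heme-degrading oxygenase, read 29.7 with TSA + LPS and 99.8 with LPS, and 41.8 with TSA + GW3965 + LPS against 98.8 with GW3965 + LPS. It fell by 1.49 (SE 0.26, limma adjusted p = 6e-07). Gclc and Gclm, the subunits of the enzyme that starts glutathione synthesis, fell by 1.64 and 1.47, Txnrd1, a thioredoxin reductase, by 1.11 and Slc7a11, the cystine carrier, by 0.92. Each of these 5 was between 1.74-fold and 3.36-fold lower in both pairs. The 3 that rose were the glutathione transferase Gsta4 by 1.93, the metallothionein Mt2 by 1.32 and the peroxiredoxin Prdx2 by 0.97.

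Nr1h3, which encodes LXR alpha, the receptor that GW3965 activates, read 3.48 with TSA + LPS and 16.5 with LPS, and 4.9 with TSA + GW3965 + LPS against 10.3 with GW3965 + LPS. It fell by 1.66 (SE 0.28, limma adjusted p = 3.44e-07). The LXR target Abcg1, a cholesterol exporter, read 5.66 with TSA + LPS and 10.8 with LPS, but 30.6 with TSA and 31.1 without in the GW3965 pair, and did not pass. Of 10 measured genes in the list of LXR targets and cholesterol export, 1 was 2-fold higher in the pair, Scd1, and 2 were lower. Scd1 read 2.87 with TSA + LPS and 0.941 with LPS, and 1.12 with TSA and 1.22 without in the GW3965 pair. It did not pass (limma adjusted p = 0.169). Fasn, the fatty acid synthase, fell by 1.57; another of its probes, not measured in the pair, gave a log2 difference of 0.43. With the mean of all its probes the effect on Fasn was -0.88 and did not pass (limma adjusted p = 0.0952). All 7 measured genes of sterol synthesis and uptake lay below 0, with a median of -0.75, and 2 of them fell, Cyp51 by 0.88 and Sc5d by 0.80. Of 27 lysosomal and phagocytic genes the cathepsins Ctsz and Ctsk fell by 1.03 and 0.95 and Hexa by 0.72, and 24 did not pass. The share fallen over all tested genes was 5.53%. Hexa was 2.50-fold lower in the pair but only 1.09-fold lower in the GW3965 pair.

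Respiratory chain and ribosomal protein genes lay above 0 in the pair, and the size of this depended on the scaling. The median of 22 respiratory chain genes was 0.45 as deposited, 0.27 after quantile normalization and 0.17 after cyclic loess. For 24 ribosomal protein genes it was 0.62, 0.25 and 0.22 in the same order. Over the tenth of genes with the highest mean intensity, the median difference in the pair was 0.26 as deposited and 0.04 after quantile normalization, and bright genes as a whole thus read higher on the TSA + LPS array. By limma 4 respiratory genes rose, the complex I subunits Ndufv2, Ndufa4 and Ndufb5 and the complex III subunit Uqcrb, and the ATP synthase gene Atp5b fell. Atp5b was 3.21-fold lower in the pair but only 1.12-fold lower in the GW3965 pair. Uqcrb read 415 with TSA + LPS and 209 with LPS, and 407 with TSA and 195 without in the GW3965 pair, and rose by 1.03 (SE 0.27, limma adjusted p = 0.00327). Of 24 ribosomal protein genes Rplp1 rose by 0.77 and 23 did not pass, and Rplp1 did not pass after quantile normalization (limma adjusted p = 0.0585).

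Nucleolar and ribosome biogenesis genes, in contrast, had a median of -0.75, and -0.41 in the GW3965 pair. In the pair 8 of 17 were 2-fold lower, against 9.55% of all measured genes. By limma 4 fell, 1 rose and 12 did not pass, where 5.53% of all tested genes fell and 7.44% rose. Tma16, a ribosome assembly factor, read 5.41 with TSA + LPS and 20.3 with LPS, and 9.64 with TSA + GW3965 + LPS against 31.2 with GW3965 + LPS, and fell by 1.80 (SE 0.28, limma adjusted p = 1.32e-08). Srm, which makes spermidine, fell by 1.31, Noc2l by 1.29 and nucleolin, Ncl, by 1.15. Nop10, a small nucleolar ribonucleoprotein, rose by 0.84. Among chaperones the small heat shock protein Hspb1 read 5.06 with TSA + LPS and 1.08 with LPS and rose by 2.11 (SE 0.34, limma adjusted p = 1.07e-07). Hspa1b, with a near-identical neighbour that a probe may read, rose by 0.88. The endoplasmic reticulum chaperone Hspa5 fell by 1.08, the mitochondrial Hspa9 by 0.85, and the stress factor Ddit3 and the asparagine synthetase Asns by 0.94 and 0.76.

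Housekeeping genes had a median of 0.24 as deposited, -0.04 after quantile normalization and -0.11 after cyclic loess. Actb read 949 with TSA + LPS and 805 with LPS. Gapdh read 807 with TSA + LPS and 405 with LPS, and 606 with TSA and 545 without in the GW3965 pair, and neither passed. Of 13 measured, 2 were at least 2-fold lower in the pair and 0 higher. Ywhaz was 2.82-fold lower and Eef1a1 2.19-fold lower, against 1.04-fold and 1.22-fold lower in the GW3965 pair. Of 13 tested Pgk1, a glycolytic enzyme, rose by 0.74 and 12 did not pass as deposited. After quantile normalization, and likewise after cyclic loess, limma called 2 of the list fallen. Eef1a1 passed in each of these settings, with limma effects of -0.88 and -0.95, against -0.71 as deposited.

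Of 26 genes of the actin cytoskeleton 9 fell, 2 rose and 15 did not pass, where 5.53% of all tested genes fell. Capg, which caps actin filaments, read 19 with TSA + LPS and 113 with LPS, and 40.6 with TSA + GW3965 + LPS against 88 with GW3965 + LPS. It fell by 1.85 (SE 0.26, limma adjusted p = 1.83e-10) and also differed at rest, with 28.8 in TSA and 91.7 in No treatment. Vasp, an elongation factor of actin at the leading edge, fell by 1.49, Parvg, a focal adhesion protein, by 1.48, Zyx (zyxin) by 1.08 and Actg1, gamma actin, by 1.05. Fscn1, Lcp1 and Pfn1, which bundle actin or bind its monomers, fell by 1.01, 0.98 and 0.71. The 2 that rose were Pfn2 and Coro1a, a coronin of leukocytes that read 20 with TSA + LPS and 6.9 with LPS. Profilin genes thus went apart, Pfn2 up and Pfn1 down.

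Among integrins and adhesion molecules 4 of 12 tested fell, 1 rose and 7 did not pass. Over all tested genes 5.53% fell and 7.44% rose. Itgal, the LFA-1 alpha chain, read 1.12 with TSA + LPS and 4.38 with LPS, and 1.16 with TSA and 2.16 without in the GW3965 pair, and fell by 1.43. Itgax (CD11c) fell by 0.96, Vcam1 by 0.97 and Itgb1 by 0.83, and Selplg, a ligand of selectins, rose by 0.83. Itgb1 was 2.86-fold lower in the pair and 1.11-fold lower in the GW3965 pair.

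Proteases that remodel tissue went both ways. The collagenase Mmp13 read 8.43 with TSA + LPS and 2.64 with LPS, and 11.7 with TSA + GW3965 + LPS against 2.21 with GW3965 + LPS, and rose by 2.04 (SE 0.33, limma adjusted p = 6.58e-08). The membrane-bound Mmp14 read 18.6 with TSA + LPS and 49 with LPS, and 13.5 with TSA and 33.6 without in the GW3965 pair, and fell by 1.36 (SE 0.27, limma adjusted p = 2.48e-05). Serpinb2, an inhibitor of plasminogen activators, rose by 1.07 and Adam8 by 0.82. The urokinase receptor Plaur, the cystatin Cst7 and tissue factor F3 fell by 0.72, 1.15 and 1.03.

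**Figure D4:**
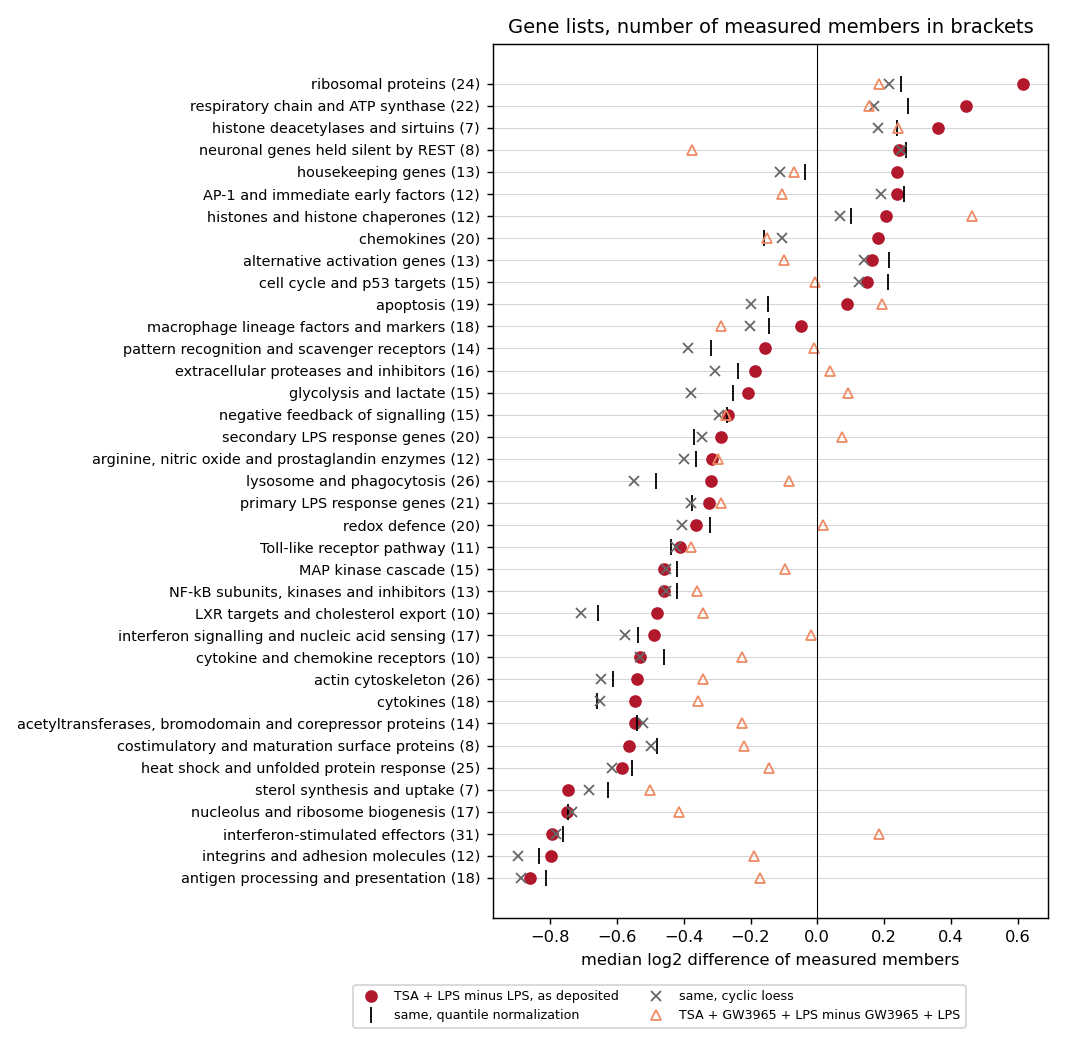
Median log2 difference of the measured members of each list with 7 or more of them, for TSA + LPS minus LPS as deposited and after 2 other scalings, and for TSA + GW3965 + LPS minus GW3965 + LPS. Most medians lie below 0 and most triangles lie nearer to 0 than the circles, and the sign turns with the scaling for chemokines, apoptosis and housekeeping genes.

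The lists overlap, and the members were chosen with these results known, so their medians are descriptions beside a median of -0.01 over all measured genes. Primary LPS response genes had a median of -0.32 in the pair and -0.29 in the GW3965 pair, and 5 of 21 fell, where 5.53% of all tested genes fell. Secondary LPS response genes had -0.29 in the pair and 0.07 in the GW3965 pair, and of 20 tested 3 fell and 1 rose.

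Genes sorted by their LPS response without use of either array of the pair were then compared for their difference with TSA. Of 536 genes at least 2-fold higher with GW3965 + LPS than with No treatment, 108 (20.1%) were 2-fold lower in the pair and 22 (4.10%) higher, with a median of -0.39. Lower genes made up 58 of 329 genes (17.6%) that were 2 to 4-fold induced, 35 of 167 genes induced 4 to 16-fold, and 15 of 40 genes (37.5%) induced at least 16-fold. Among 4029 genes less than 2-fold apart with GW3965 + LPS, 7.97% were lower and 7.30% higher. GW3965 is present in the array that sorts these genes.

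The 229 genes that GW3965 + LPS had at least 2-fold lower than No treatment spread to both sides. Of these 47 (20.5%) were 2-fold higher with TSA + LPS than with LPS and 29 (12.7%) lower, with a median of 0.01. A gene under its median on the LPS array counts as measured only if the TSA + LPS array reached its own median. The filter thus favours higher genes among those low with LPS, and its part in the 20.5% was not tested. Susd3, a membrane protein with a sushi domain, was among the higher ones. It read 6.87 with TSA + LPS and 0.636 with LPS, 4.63 with TSA + GW3965 + LPS and 0.85 with GW3965 + LPS, and 14.7 with TSA against 8.91 with No treatment. Both TSA arrays with LPS lay between the resting arrays and the LPS arrays without TSA. Among induced genes that were higher with TSA, Slc30a4, a zinc transporter, was 3.86-fold higher in the pair. Plac8 read 35.3 with TSA + LPS and 9.74 with LPS, and Vhl, which targets hypoxia factors for destruction, read 10.0 with TSA + LPS and 2.98 with LPS. These 3 rose by 2.04, 1.83 and 1.33.

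Whether TSA acted differently under LPS than at rest was tested as a difference of the TSA effects. Of 5080 genes 2 were more positive under LPS (0.0394%) and 10 more negative (0.197%) by limma, and 255 had an unadjusted p under 0.05. With each array floored at its median, and when all 6 arrays had to reach their medians, limma called 0 genes in either direction, with 116 more positive and 148 more negative at an unadjusted p under 0.05 in the first case and 66 and 99 in the second. Ptx3 and Arhgef2 were among the 12, lower under LPS and under the floor on both resting arrays. Il6 read 0.447 with TSA and 0.413 with No treatment at rest, Vnn3 0.752 with TSA and 0.662 with No treatment, and Tma16 3.57 with TSA and 3.18 with No treatment at rest. Vcan, the proteoglycan versican, went the other way at rest. It read 2.46 with TSA and 0.354 with No treatment, but 14.8 with TSA + LPS and 21.2 with LPS, a difference of -2.85 between the effects (SE 0.51, limma adjusted p = 8.99e-05). Lmna, which encodes lamins A and C, read 2.67 with TSA and 7.16 with No treatment, but 3 with TSA + LPS and 2.83 with LPS, and was more positive under LPS by 2.15 (SE 0.54, limma adjusted p = 0.0283).

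**Figure D5:**
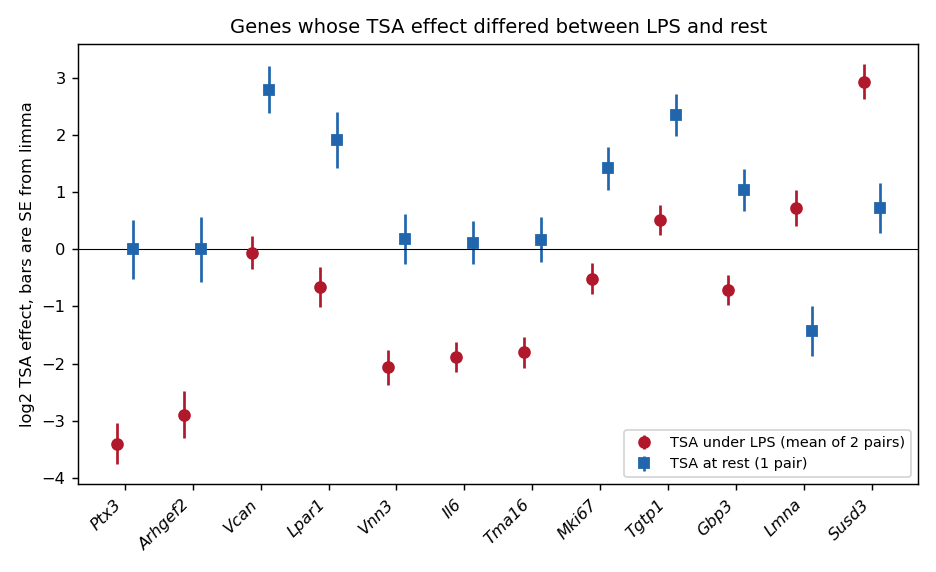
TSA effect on the log2 scale under LPS (mean of 2 pairs) and at rest (1 pair) for the 12 genes whose effects differed by limma, with standard errors from the fit as bars. Ptx3, Arhgef2, Vnn3, Il6 and Tma16 lie at -1.80 or lower under LPS and near 0 at rest, Vcan, Lpar1, Mki67, Tgtp1 and Gbp3 are higher at rest, and Lmna and Susd3 are higher under LPS.

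The labelled cell type was checked on markers. Of 22 macrophage genes on the array 18 were at or above the median on each of the 6 arrays, and their summed intensity was 2450 with TSA + LPS and 1976 with LPS. Lyz2, the lysozyme of macrophages and neutrophils, read 1050.05 with TSA + LPS and 740.5 with LPS, and Adgre1, the macrophage antigen F4/80, read 2.58 with TSA + LPS and 2.74 with LPS. Of the 18 macrophage genes measured in the pair, 8 lay above 0 and 10 below, with a median of -0.05. At least 2-fold higher were 2 of them, and 4 were lower, namely Irf8, Fcgr2b, Itgam and Cd14. Itgam read 1.74 with TSA + LPS and 3.97 with LPS. Neutrophil markers summed to 83.4 with TSA + LPS and 52.5 with LPS, with 3 of 8 at or above the median on both arrays. S100a8, shared by neutrophils and macrophages, gave most of that sum, with 78.8 with TSA + LPS and 47.2 with LPS. Of 4 neutrophil markers measured in the pair, Prtn3 was at least 2-fold higher and 2, Csf3r and Camp, were lower. The median log2 difference of these 4 was -0.20. T cell markers summed to 4.01 with TSA + LPS and 3.10 with LPS, and B cell markers to 8.02 with TSA + LPS and 6.82 with LPS. Natural killer markers summed to 0.640 with TSA + LPS and 0.603 with LPS, and eosinophil and mast cell markers to 2.70 with TSA + LPS and 2.22 with LPS. Fibroblast and mesothelial markers summed to 3.67 with TSA + LPS and 5.41 with LPS, and dendritic cell markers to 11.0 with TSA + LPS and 24.2 with LPS, most of it Itgax, which macrophages also express. The part of other cells in the results was not tested.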

How the data were processed

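The series was measured on 6 single-colour arrays of biotin-labelled RNA, 1 for each group. The deposited intensity values were used as given, on a linear scale. They had been scaled between arrays before deposit, and the method is not given in the sources used here. The array platform, dose and time are likewise not given. Each array had 19 to 28 values at or below 0.

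Of 10076 probes, 8983 carried 1 gene symbol, 1 several and 1092 none in the platform annotation. They stood for 8841 genes, and for 138 genes with several probes the probe with the highest mean was used. A mouse gene table held the IDs of 8975 of them and changed 0 symbols. Arrays were floored at their 25th percentile and log2 values were taken. A fold with a floored side is a bound. In the pair 5 higher and 3 lower genes of at least 2-fold are bounds.

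limma 3.58.1 in R 4.3.3 fitted LPS, GW3965, TSA and TSA by LPS to 5080 genes at or above the median in at least 1 group, with an intensity trend, 1 residual degree of freedom and Benjamini-Hochberg adjustment over all 5080 genes, two-sided. The estimated prior degrees of freedom were infinite. That degree of freedom is the difference between the TSA effects under LPS with and without GW3965. The spread behind the p-values thus mixes any dependence of the TSA effect on GW3965 with noise, pooled over genes. No array replicates another and nothing says that arrays came from separate cultures, so p-values do not measure spread between replicates. In 10 simulated sets of 5080 genes for the TSA effect under LPS, limma found 74.9% of 2-fold and 99.8% of 4-fold changes, and 3.97% of its calls were false. The simulated noise had the same spread for every gene, and the simulated effect was equal in both pairs. The real pairs differ from each other, so these shares need not hold for the real arrays. Promoters came from RefSeq, build GRCm38.p6, with the first listed start of each gene.

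The members and the 44 gene lists, with 921 symbols of which 706 were on the array, were chosen with earlier results of these data known. Named genes are the 14 highest and 14 lowest at least 2-fold apart in the pair and 1.5-fold the same way in the GW3965 pair; the 5 highest and 5 lowest under 1.2-fold apart or opposite there; the 6 most positive and 6 most negative differences from rest; the 3 members of each list farthest from 0; 14 genes fixed by name; and the 4 highest and 4 lowest LPS-induced and LPS-repressed genes. Other list members that limma called, and a few members given for contrast such as Rela, Tlr4, Tlr2, Il18, Ccl5, Cxcl1, Ifit1, Isg15, Mx1, Irf1, Cd86, Abcg1, Lyz2, Adgre1, S100a8, Mki67 and Tgtp1, were named after their values were seen. Other settings tried were 2 scalings, other floors and level filters, averaged probes, other fold thresholds, other variance priors and an additive model. Python 3.11.15 with matplotlib 3.10.9 drew the figures. The number of arrays limits the precision.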

Additional observations from a re-analysis of the deposited data

Results flagged for a closer look

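For 12 genes the TSA effect under LPS differed from that at rest by a test of the difference itself, at a limma adjusted p under 0.05. None of the 12 calls was left with each array floored at its median or when all 6 arrays had to reach their medians. The value given is the log2 effect under LPS minus that at rest. It was -3.40 for Ptx3 and -2.90 for Arhgef2, whose resting arrays were both under the floor. The difference was -2.25 for Vnn3, -2.0 for Il6 and -1.97 for Tma16, which were lower with TSA in both LPS pairs. Vcan had -2.85, Lpar1, a receptor of lysophosphatidic acid, -2.56 and Mki67, a marker of cycling cells, -1.93, and their intensities at rest were higher with TSA than with No treatment. The No treatment value of Lpar1, 0.221, was under the floor, so its effect at rest is a bound. Tgtp1, an interferon-inducible GTPase with a near-identical copy, had -1.84, with 400.15 in TSA + LPS and 314 in LPS but 69.3 in TSA and 13.6 in No treatment. Gbp3 had -1.75. Susd3 had 2.22 and Lmna 2.15, both more positive under LPS. The effect at rest rests on 1 pair of arrays, and the part of the floor in these differences was not tested.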

How the results depend on the processing

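No paired analysis was possible because the labels give no replicate numbers and each group has 1 array. In the pair, 880 genes were higher and 1061 lower at a 1.5-fold threshold, and 113 and 89 at a 3-fold threshold. Over the other alternatives for the pair the counts ran from 250 to 489 higher and from 336 to 534 lower. limma called 261 to 557 risen and 196 to 383 fallen genes over its alternatives, except with each array floored at its median, where it called 0 and 0 (468 and 332 at an unadjusted p under 0.05) and the prior degrees of freedom were 2.44. Requiring 1.5-fold the same way in both pairs, an alternative chosen after seeing the data, left 312 risen and 167 fallen. Genes more positive under LPS than at rest numbered 5 after quantile normalization, 5 after cyclic loess, 0 with the median floor (116 unadjusted) and 0 when all 6 arrays had to reach their medians (66 unadjusted). Those more negative numbered 0 with the median floor (148 unadjusted), 0 with all 6 arrays at their medians (99 unadjusted) and 6 without a variance trend. The medians of chemokines (-0.16 and -0.11), apoptosis (-0.15 and -0.20) and housekeeping genes (-0.038 and -0.11) turned negative after quantile normalization and cyclic loess. Of 154 named genes tested, 105 lost their limma call under the median floor and 0 changed direction. The other 49 had no call to lose. The effect of Capg was -1.85 with either floor, but its limma adjusted p went from 1.83e-10 to 0.248. That of Arhgef2 went from -2.89 to -1.08. The cause of the lost calls was not tested. Low signal limits genes near the floor, whose differences are bounds, and 1 array per group leaves the pair without an error.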
